A study of Mus musculus with 4 samples.

Results

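The IL-36 genes are 5 members of the IL-1 family axis: the agonist cytokine genes Il1f6 (also Il36a, encoding IL-36 alpha), Il1f8 (Il36b, IL-36 beta) and Il1f9 (Il36g, IL-36 gamma), the antagonist gene Il1f5 (Il36rn) and the receptor gene Il1rl2. Members were probe sets whose only listed gene symbol was that of one of these genes. All 5 genes were found, each with 1 probe set, among 19938 named genes on the array, and 0 probe sets with several listed symbols held a member.

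RNA came from whole ears of female mice aged 8 weeks, and 4 Affymetrix Mouse Gene 1.0 ST arrays were hybridised, 1 for each group. The groups were Traf6EKO with imiquimod cream, Traf6EKO untreated, Traf6f/f with imiquimod cream and Traf6f/f untreated. EKO stands below for the arrays labelled as epithelial Traf6 knockout and f/f for those with the floxed gene left intact. Imiquimod (IMQ), a TLR7 agonist that provokes psoriasis-like inflammation in mouse skin, was given as 10 mg of cream per day on the ear for 2 days. The series title calls the deletion specific to keratinocytes, and the sources used here do not name the Cre driver. The series' description gives n = 2, while each group holds 1 array; whether several mice were pooled is not stated in the sources used here. No value below therefore has a replicate error or a p-value, and a difference is a difference between arrays. Whole ear also holds dermis, fat, muscle and cartilage, and fewer cells of a type cannot be told apart from less RNA per cell. The comparisons asked how far the IL-36 genes moved with IMQ in EKO and in f/f skin, and how EKO and f/f skin differed under each treatment.

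IL-36 cytokines are made mainly by epithelial cells such as keratinocytes. The agonists bind the receptor encoded by Il1rl2, which then recruits the accessory chain IL1RAP, shared with the IL-1 and IL-33 receptors. The complex signals through MyD88, IRAK kinases and TRAF6 to NF-kB and MAP kinases. The antagonist binds the same receptor without recruiting the accessory chain. In people, loss of the antagonist causes a pustular form of psoriasis, and in mice the IL-36 receptor is needed for full IMQ-induced skin inflammation.

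Promoter sequence is shown because the ligand genes lie side by side and differed in how far their levels moved. RefSeq windows of assembly GRCm38.p6 were matched by symbol for 4 of the 5 members: Il1f8, Il1f9, Il1f5 and Il1rl2. The 250 bases before the annotated start were searched on both strands for 4 motifs: NF-kB as GGGA and CC separated by 4 free bases, AP-1 as TGANTCA, C/EBP as TTGCNNAA and STAT as TTCNNNGAA. Capitals mark the matches, none of which overlapped another.
Il1f8, GRCm38.p6, chr2:24152922-24153171, plus strand: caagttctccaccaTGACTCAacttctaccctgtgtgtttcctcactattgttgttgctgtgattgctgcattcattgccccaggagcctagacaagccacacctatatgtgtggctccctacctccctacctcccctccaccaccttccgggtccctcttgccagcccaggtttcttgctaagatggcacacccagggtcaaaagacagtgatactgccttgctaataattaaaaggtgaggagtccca
Il1f9, GRCm38.p6, chr2:24186226-24186475, plus strand: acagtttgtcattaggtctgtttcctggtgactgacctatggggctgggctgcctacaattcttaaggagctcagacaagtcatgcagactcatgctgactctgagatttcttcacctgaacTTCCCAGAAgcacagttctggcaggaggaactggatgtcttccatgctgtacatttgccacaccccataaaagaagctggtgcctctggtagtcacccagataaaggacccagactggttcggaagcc
Il1f5, GRCm38.p6, chr2:24276704-24276953, plus strand: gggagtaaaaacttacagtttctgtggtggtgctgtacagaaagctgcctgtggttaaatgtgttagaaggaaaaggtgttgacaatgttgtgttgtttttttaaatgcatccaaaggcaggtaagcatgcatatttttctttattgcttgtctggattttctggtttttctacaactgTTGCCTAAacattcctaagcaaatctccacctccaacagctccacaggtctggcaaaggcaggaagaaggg
Il1rl2, GRCm38.p6, chr1:40324339-40324588, plus strand: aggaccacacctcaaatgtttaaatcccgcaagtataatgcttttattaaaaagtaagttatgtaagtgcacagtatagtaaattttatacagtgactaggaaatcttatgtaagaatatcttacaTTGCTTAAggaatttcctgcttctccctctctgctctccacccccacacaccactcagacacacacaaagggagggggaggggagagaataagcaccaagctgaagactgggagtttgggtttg
Il1f8 held an AP-1 match, Il1f9 a STAT match, and Il1f5 and Il1rl2 a C/EBP match each. Il1f5 has a second RefSeq start, whose window, not printed, held an NF-kB match and a STAT match. Of 32851 such windows in the RefSeq table, 17.6% held the NF-kB motif, 6.75% AP-1, 9.56% C/EBP and 7.02% STAT. A match says only that these letters are present in the window.

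The targeted gene, Traf6, had a log2 level of 9.35 in EKO IMQ and 9.65 in EKO untreated skin, against 9.30 in f/f IMQ and 9.51 in f/f untreated skin. EKO thus read slightly higher than f/f under both treatments. Whether the probes cover the deleted exons is not stated in the sources used here, and non-epithelial cells keep the gene, so that the genotype labels could not be checked from it. The median log2 level of all named genes was between 6.93 and 6.98 on the 4 arrays and served as a floor: a gene entered a comparison if it reached the floor on at least 1 array compared. Every member lay above the floor on all 4 arrays, the lowest reading being 8.50. Keratinocyte markers were abundant, with Krt14 at log2 levels of 12.90 in EKO IMQ, 12.64 in EKO untreated, 13.02 in f/f IMQ and 12.29 in f/f untreated skin.

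Among the agonists, Il1f6 moved furthest. Its log2 level was 10.36 in EKO IMQ and 9.60 in EKO untreated skin, against 11.35 in f/f IMQ and 8.70 in f/f untreated skin. Both IMQ arrays were above both untreated arrays, and the highest and the lowest reading were both f/f. With IMQ, Il1f6 was 1.70-fold higher in EKO, a log2 difference of 0.77 that ranked 148 from the highest of 10285 genes. In f/f it was 6.30-fold higher, a log2 difference of 2.66 that ranked 51 of 10548.

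Il1f8 had log2 levels of 9.74 in EKO IMQ and 9.08 in EKO untreated skin, against 9.91 in f/f IMQ and 8.50 in f/f untreated skin. The IMQ readings of the genotypes lay close together, whereas the untreated ones did not. Its IMQ difference was 0.66 in EKO (1.58-fold) and 1.42 in f/f (2.67-fold). Il1f9, whose human counterpart is used as a marker of psoriatic lesions, had log2 levels of 11.01 in EKO IMQ and 10.70 in EKO untreated skin, against 11.44 in f/f IMQ and 10.37 in f/f untreated skin. Its IMQ difference was 0.31 in EKO (1.24-fold) and 1.07 in f/f (2.10-fold). The f/f value lay just past 2-fold, and was 0.96 after quantile normalization and 0.99 after cyclic loess.

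The antagonist Il1f5 moved in the same direction as the agonists. It had log2 levels of 11.29 in EKO IMQ and 10.84 in EKO untreated skin, against 11.38 in f/f IMQ and 10.48 in f/f untreated skin. Its IMQ difference was 0.45 in EKO (1.37-fold) and 0.90 in f/f (1.86-fold), just short of 2-fold. The IMQ difference of Il1f6 exceeded that of Il1f5 by 0.31 in EKO and by 1.76 in f/f on the log2 scale. For Il1f8 the excess over the antagonist was 0.21 in EKO and 0.52 in f/f. For Il1f9 it was -0.14 in EKO and 0.17 in f/f, so this agonist and the antagonist moved by similar amounts.

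The receptor gene Il1rl2 moved least. Its log2 levels were 9.92 in EKO IMQ and 9.73 in EKO untreated skin, against 10.05 in f/f IMQ and 9.56 in f/f untreated skin. The IMQ difference was 0.19 in EKO (1.14-fold) and 0.49 in f/f (1.40-fold). In EKO, 16.1% of genes above the floor had a difference at least as high, and in f/f 13.4%. All 4 ligand genes lay further out than the receptor: at most 7.59% of genes in EKO and 4.64% in f/f had a difference as high as any of them.

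**Figure D1:**
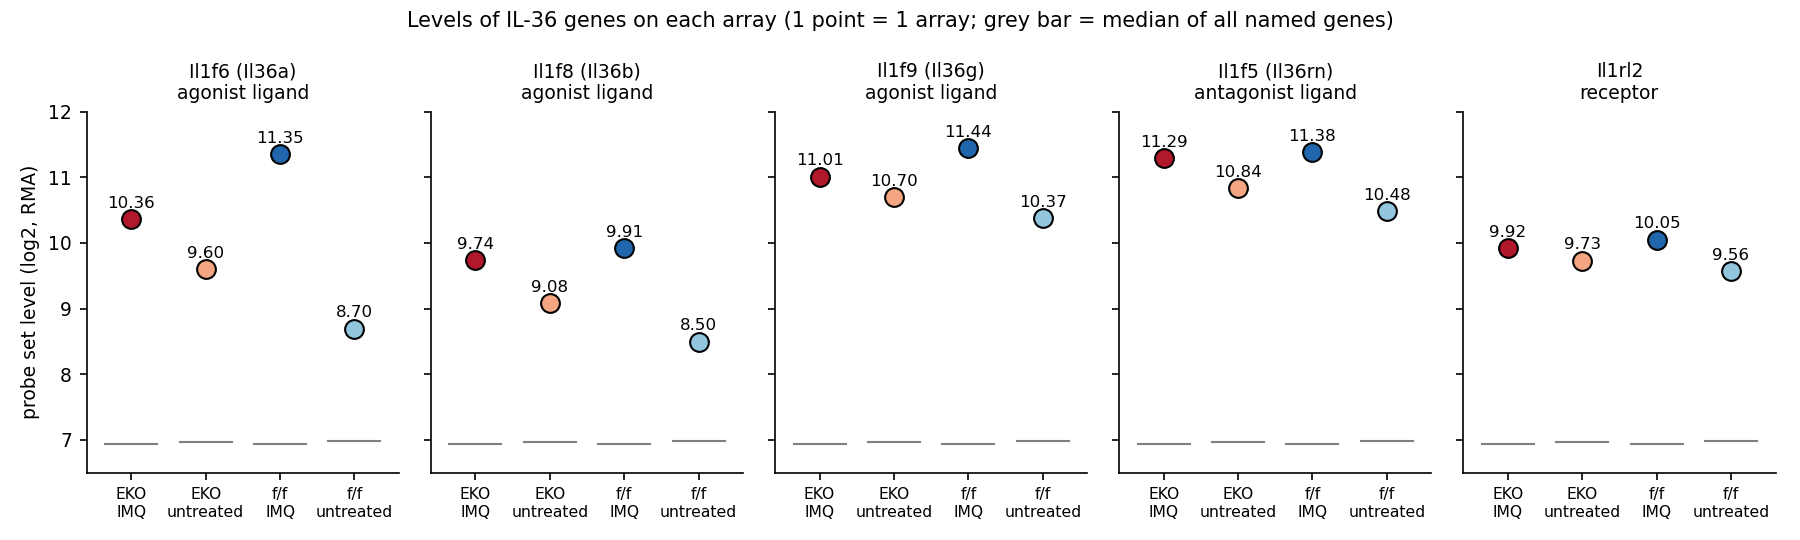
RMA log2 level of each IL-36 gene (y axis) on the 4 arrays (x axis, 1 point per array), with a grey bar at each array's median of all named genes. In every panel f/f IMQ is the highest and f/f untreated the lowest, with EKO IMQ above EKO untreated between them; the spread is widest for Il1f6 (8.70 to 11.35) and narrowest for Il1rl2 (9.56 to 10.05).

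Counted at 2-fold, 0 of the 5 members were higher with IMQ in EKO, where 0.671% of 10285 genes were. In f/f, 3 of 5 (Il1f6, Il1f8 and Il1f9) were at least 2-fold higher, where 3.82% of 10548 genes were higher and 2.63% lower by that much. The median IMQ difference of all genes above the floor was -0.01 in EKO and 0.01 in f/f. The EKO difference came to 28.8% of the f/f difference for Il1f6 (log2 scale), 29.3% for Il1f9, 38.4% for Il1rl2, 46.5% for Il1f8 and 50.5% for Il1f5. Over the 403 genes at least 2-fold higher with IMQ in f/f the median of this share was 42.6%, and choosing genes on their f/f difference tends to lower it. The members thus lay on both sides of that median.

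Without IMQ, all 5 members read higher in EKO than in f/f. The log2 difference was 0.90 for Il1f6 (1.87-fold), 0.59 for Il1f8, 0.35 for Il1f5 (1.28-fold), 0.32 for Il1f9 (1.25-fold) and 0.17 for Il1rl2 (1.12-fold). None reached 2-fold, which 0.0686% of 10200 genes did in the higher direction. Il1f6 ranked 11 from the highest of these genes and Il1f8 ranked 66. For Il1rl2, 16.5% of genes lay at least as high.

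With IMQ, all 5 members read lower in EKO than in f/f skin. Their log2 difference was -0.99 for Il1f6 (1.98-fold lower, just short of 2-fold), -0.43 for Il1f9, -0.17 for Il1f8, -0.13 for Il1rl2 and -0.09 for Il1f5. Thus 0 of 5 were at least 2-fold lower, against 0.875% of 10282 genes. For Il1f8, Il1rl2 and Il1f5 the reading in EKO IMQ skin was close to that in f/f IMQ skin: 20.7%, 26.2% and 33.0% of genes lay at least as low.

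The difference of the IMQ differences, EKO minus f/f, was -1.89 for Il1f6 (3.71-fold), -0.76 for Il1f8, -0.76 for Il1f9, -0.44 for Il1f5 and -0.30 for Il1rl2. Only Il1f6 passed 2-fold, 1 of 5 members, where 1.18% of 10646 genes were lower and 1.06% higher by that much, and it ranked 37 from the lowest. This value uses all 4 arrays, so the untreated and the IMQ comparisons of the genotypes both enter it. For Il1f6 the gap between genotypes without IMQ (0.90) and with IMQ (-0.99) entered in nearly equal parts. For Il1f8 and Il1f5 most of it came from the untreated arrays (0.59 and 0.35, against -0.17 and -0.09 with IMQ). The comparison of EKO with f/f without IMQ and the IMQ comparison in f/f share the f/f untreated array, so that a low reading on it raises both.

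**Figure D2:**
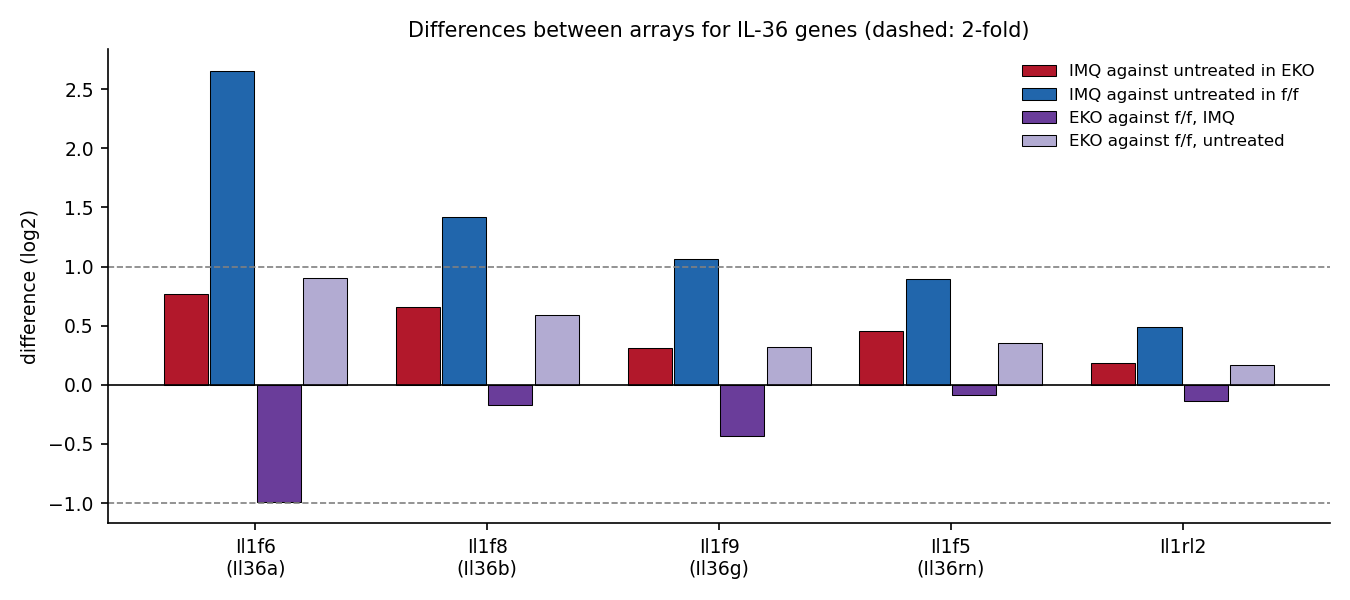
Log2 differences (y axis) of the 5 IL-36 genes (x axis) in 4 comparisons, 1 bar for each, with dashed lines at 2-fold. The f/f IMQ bars are the tallest for every gene (0.49 to 2.66), and EKO against f/f is above 0 without IMQ and below 0 with IMQ for every gene.

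Each of the 5 members showed the same order of levels: f/f IMQ highest, then EKO IMQ, then EKO untreated, then f/f untreated. Across 10646 genes above the floor, 20.0% had this order. Among the 403 genes at least 2-fold higher with IMQ in f/f, 337 (83.6%) had it, and choosing them on that difference fixes part of the order. The order is therefore common among genes that were higher with IMQ.

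Keratinocyte markers differed among themselves, with medians closer to 0 than the differences of the 4 ligand genes in each comparison of IMQ with untreated skin. Of 13 markers, 8 were higher with IMQ in EKO (median log2 difference 0.04) and 10 in f/f (median 0.42). EKO was higher than f/f for 7 with IMQ (median 0.03) and for 12 without (median 0.27). Their summed log2 level was 15.78 in EKO IMQ and 15.65 in EKO untreated, against 15.73 in f/f IMQ and 15.40 in f/f untreated skin. Individual markers ran either way in f/f with IMQ, from the basal keratin Krt15 at -1.94 to the desmosomal cadherin Dsg3 at 1.40. Markers of muscle, fat, fibroblasts and cartilage had a summed log2 level of 14.48 in EKO IMQ and 14.78 in EKO untreated, against 14.23 in f/f IMQ and 15.02 in f/f untreated skin. This sum ran opposite to the keratinocyte sum with IMQ in each genotype and between genotypes without IMQ. Between genotypes with IMQ, both sums were higher in EKO. The part of tissue composition in the members' differences was not tested.

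Cells that can respond to IL-36 or make it were read by further markers. The summed log2 level of 12 Langerhans and dendritic cell markers was 12.50 in EKO IMQ and 13.10 in EKO untreated, against 12.35 in f/f IMQ and 13.19 in f/f untreated skin. The MHC class II genes H2-Aa, H2-Ab1 and H2-Eb1 carry most of this sum. By gene, 9 of 12 were lower with IMQ in EKO and 10 of 12 in f/f, though only 7 and 6 of the 12 reached the floor. Cd209a was the lowest, at -1.34 in EKO and -2.42 in f/f, while Ccr7 was at 0.37 in EKO and 0.42 in f/f. Cd207, a Langerhans cell gene, was at -0.38 in EKO and -0.01 in f/f. It lay below the floor on both f/f arrays. The summed log2 level of 13 neutrophil markers was 10.15 in EKO IMQ and 9.40 in EKO untreated, against 12.65 in f/f IMQ and 9.30 in f/f untreated skin. Of these, 3 passed 2-fold with IMQ in EKO and 6 in f/f, among them S100a8 and S100a9, which stand on the IL-36-responsive list too. Without these 2, a choice made after seeing the data, the sum was 9.42 in EKO IMQ and 8.96 in EKO untreated, against 10.31 in f/f IMQ and 8.82 in f/f untreated skin. The granule genes Elane, Mpo, Ltf and Camp lay below the floor on all arrays. The part of these cells in the members' differences was not tested. The sums of 9 macrophage and monocyte markers lay between 11.74 and 11.97 and those of 8 T cell markers between 10.68 and 10.84 over the 4 arrays. Single markers in these sums ran either way. With IMQ in f/f, 3 macrophage markers were higher and 6 lower, from Cd163 at -1.14 to Fcgr1 at 0.88. Of the T cell markers, 3 were higher and 5 lower, from Cd3g at -1.24 to Thy1 at 0.57, and only 3 reached the floor. In EKO, Cd163 was at -0.36, Fcgr1 at 0.66, Cd3g at -0.77 and Thy1 at 0.10.

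**Figure D3:**
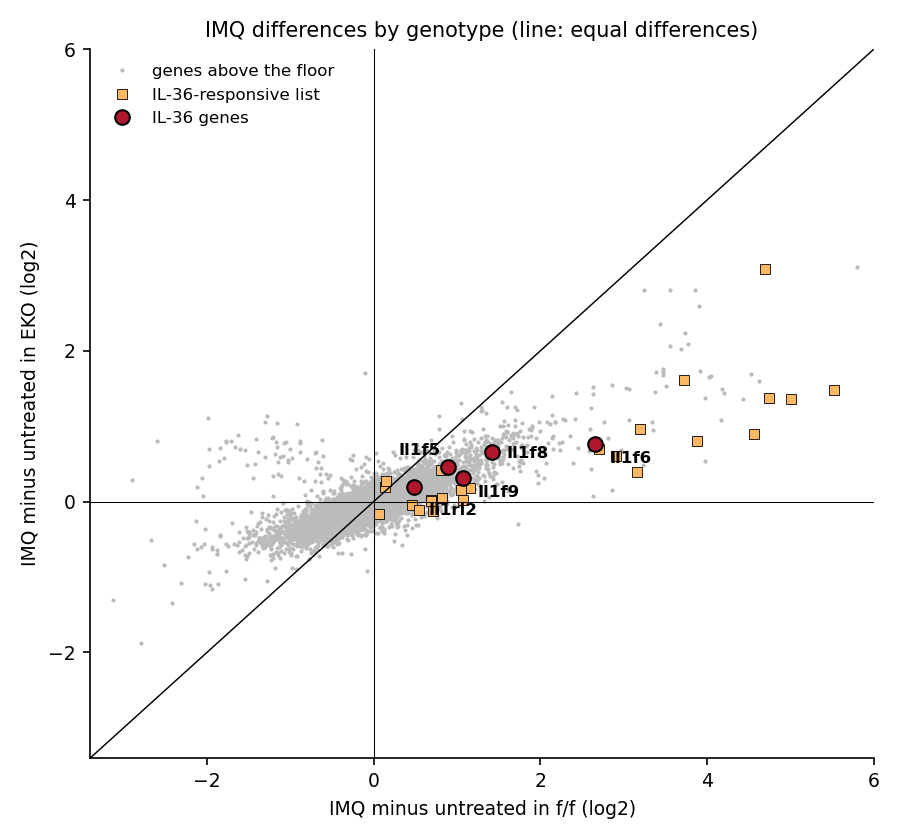
IMQ minus untreated log2 difference in EKO (y axis) and in f/f (x axis) for genes above the floor on any array (grey), the IL-36-responsive list (orange squares) and the 5 IL-36 genes (red); the line marks equal differences. All 5 members lie above 0 on both axes and below the line, from Il1rl2 (0.19 in EKO, 0.49 in f/f) to Il1f6 (0.77 in EKO, 2.66 in f/f).

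The ligand genes were next set among their neighbours, using only the order of genes in RefSeq. On chromosome 2 the protein-coding order is Il1f8, Il1f9, Il1f6, Il1f5, Il1f10 and Il1rn, followed by Psd4. Il1rn, which encodes the antagonist of the IL-1 receptor, had IMQ differences of 0.35 in EKO and 1.08 in f/f. Il1f10, which encodes IL-38, was the exception in this run at -0.60 in EKO and -0.62 in f/f, although it lay below the floor on all 4 arrays (5.80 to 6.61). The flanking genes Tbpl2 and Psd4 were at 0.10 and 0.16 in EKO and at -0.14 and 0.33 in f/f. Of these, Tbpl2 lay below the floor on all 4 arrays (3.98 to 4.12), so its differences are imprecise. On chromosome 1, Il1rl2 lies between Il1r1 and Il1rl1, for which no value is given here. Il1r2, the decoy receptor for IL-1, was lower with IMQ at -0.41 in EKO and -0.53 in f/f.

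**Figure D4:**
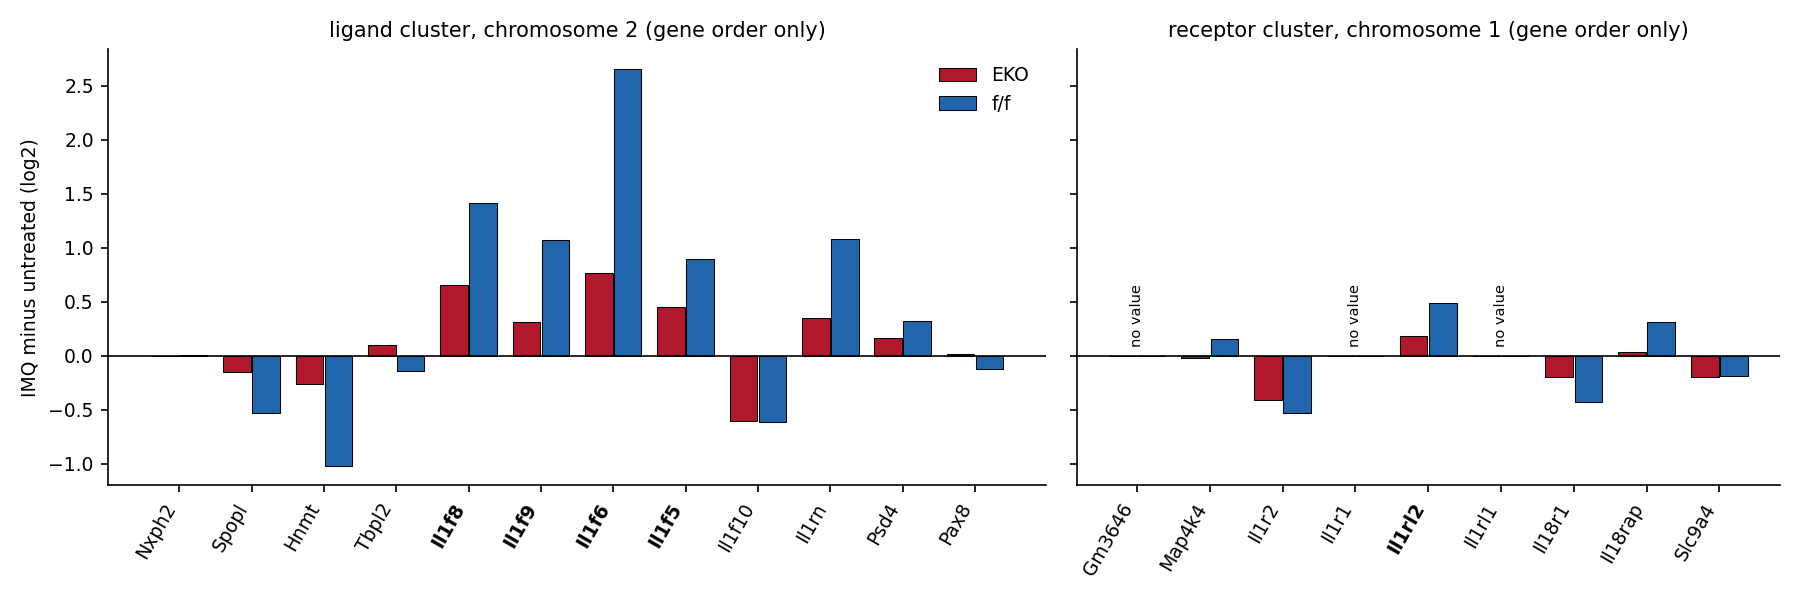
IMQ minus untreated log2 difference (y axis) in EKO (red) and f/f (blue) for the ligand genes on chromosome 2 and the receptor gene on chromosome 1 with their protein-coding neighbours in RefSeq order (x axis, not to scale; members in bold). The run Il1f8, Il1f9, Il1f6 and Il1f5 is above 0 in both genotypes, peaking at Il1f6, whereas Il1f10 is below 0 in both; genes marked as without a value have none here.

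Of the other IL-1 family genes, 14 of 16 were measured. With IMQ, 0 passed 2-fold in EKO and 4 did in f/f, all higher: Il1b (0.81 in EKO, 3.88 in f/f), Il1a (0.31 and 2.04), the alarmin Il33 (0.14 and 1.62) and Il1rn (0.35 and 1.08). The median difference of the list was 0.02 in EKO and -0.09 in f/f, with 6 genes higher and 8 lower in f/f. Of the 14 genes, 8 reached the floor in EKO and 9 in f/f. EKO IMQ skin read at least 2-fold lower than f/f IMQ skin for Il1b (-2.83), Il1a (-1.28) and Il33 (-1.23). Without IMQ, Il1a and Il33 read 0.44 and 0.25 higher in EKO, neither of them 2-fold. Il1b lay below the floor on all arrays but f/f IMQ. No untreated difference is therefore read for Il1b, and its IMQ difference in EKO is imprecise.

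Genes of the pathway below the receptor stayed under 2-fold in the values as deposited. Few genes of any kind passed it: over all genes above the floor, at most 3.82% did in a given direction of any comparison. Of 27 listed signalling genes and regulators, 24 were measured. Of these, 0 reached 2-fold in any of the 5 comparisons, which does not set them apart. Their median IMQ difference was -0.03 in EKO and 0.10 in f/f. Il1rap, the accessory chain, was at -0.24 in EKO and -0.21 in f/f. Myd88, the adaptor of the receptor complex, was at 0.27 in EKO and 0.98 in f/f, the highest of the list in f/f. This f/f value lay just short of 2-fold and passed it under median scaling. Nfkbiz, which encodes the NF-kB cofactor IkB-zeta, was at 0.42 in EKO and 0.80 in f/f, and Irak3, which encodes an inhibitory IRAK, at 0.29 in EKO and 0.78 in f/f. The feedback inhibitors Nfkbia and Tnfaip3 ran below 0 in EKO (-0.33 and -0.31) and above 0 in f/f (0.36 and 0.53). Without IMQ, 19 of the 24 read higher in EKO than in f/f (median 0.11), led by the AP-1 subunit Fos (0.80).

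IL-36 cytokines need cutting at their amino end for full activity, and neutrophil and other proteases can do so. The protease genes Elane, Ctsg and Prtn3 lay below the floor on all arrays, with IMQ differences of -0.02, -0.09 and 0.14 in EKO and of -0.04, 0.01 and -0.12 in f/f. Ctss, which encodes the cathepsin known to cut human IL-36 gamma, was at -0.02 in EKO and 0.15 in f/f. With IMQ in f/f, 3.82% of 10548 genes were at least 2-fold higher. Of the 7 genes measured of 9 listed, Slpi alone reached 2-fold. This inhibitor of neutrophil elastase had log2 levels of 7.27 in EKO IMQ and 6.59 in EKO untreated, against 9.40 in f/f IMQ and 6.43 in f/f untreated skin. Serpina3n, a serpin gene related to the human cathepsin G inhibitor, was at 0.48 in EKO and 0.89 in f/f.

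Cytokines and receptors known to raise IL-36 in keratinocytes were read by 14 of 16 listed genes. Il1a and Il1b were at least 2-fold higher with IMQ in f/f, and 0 genes were in EKO. Over all genes above the floor the shares were 3.82% in f/f and 0.671% in EKO. The median IMQ difference of the 14 was 0.00 in EKO, where 7 reached the floor, and 0.29 in f/f, where 9 did. Both medians thus rest in part on signals below the floor. Il17a was at -0.01 in EKO and 0.31 in f/f and Il17f at -0.02 and 0.53, both below the floor on every array. Tnf, at 0.01 and 0.68, reached the floor in f/f IMQ skin only. Tlr7, the receptor for IMQ, lay below the floor on all 4 arrays (6.08 to 6.53).

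Genes known to rise in cells given IL-36 were all measured (25 of 25). In the comparisons of IMQ with untreated skin, 9 of the 25 reached the floor in EKO and 17 in f/f. With IMQ, 21 were higher in EKO (median 0.39) and 25 in f/f (median 1.15), the medians taken over all 25. At 2-fold above the floor, 5 were higher in EKO and 14 in f/f, where 0.671% of 10285 and 3.82% of 10548 genes were. The 5 in EKO were Krt16, Sprr2d, Defb3, S100a9 and S100a8. Those that passed in f/f and not in EKO included the defensin genes Defb4 (0.90 in EKO, 4.56 in f/f) and Defb14 (0.60 and 2.91), and the chemokine gene Cxcl2 (0.39 and 3.15). They also included the EGF receptor ligand gene Hbegf (0.70 and 2.71), Il17c (0.18 and 1.15) and S100a7a (0.16 and 1.05), besides Il1b, Ccl20 and Lcn2. Of these, Defb4, Defb14, Cxcl2, Il17c, S100a7a and Il1b lay below the floor on both EKO arrays. Ccl20, a chemokine for cells with CCR6, had log2 levels of 7.58 in EKO IMQ and 6.63 in EKO untreated, against 10.00 in f/f IMQ and 6.81 in f/f untreated skin. Lcn2, which encodes an antimicrobial lipocalin, had log2 levels of 8.90 in EKO IMQ and 8.15 in EKO untreated, against 10.91 in f/f IMQ and 8.27 in f/f untreated skin. For both genes f/f IMQ stood well above the other 3 arrays. EKO IMQ read at least 2-fold lower than f/f IMQ for 13 of the 25, where 0.875% of 10282 genes did. Of these 13, Defb4, Defb14, Cxcl2, Il17c, S100a7a and Il1b reached the floor only in f/f IMQ skin. They were counted only through the array on which they were high, so the count depends in part on the floor. The median of -1.16 was taken over all 25, of which 17 reached the floor. Without IMQ the list median was 0.01 with 0 genes at 2-fold, but only 5 of the 25 reached the floor. That median therefore rests mostly on signals below the floor. Genes of this list also respond to IL-17 and other cytokines, so the list is not specific to IL-36. Il1b, Tnf, Nfkbiz, S100a8 and S100a9 stand on other lists too.

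**Figure D5:**
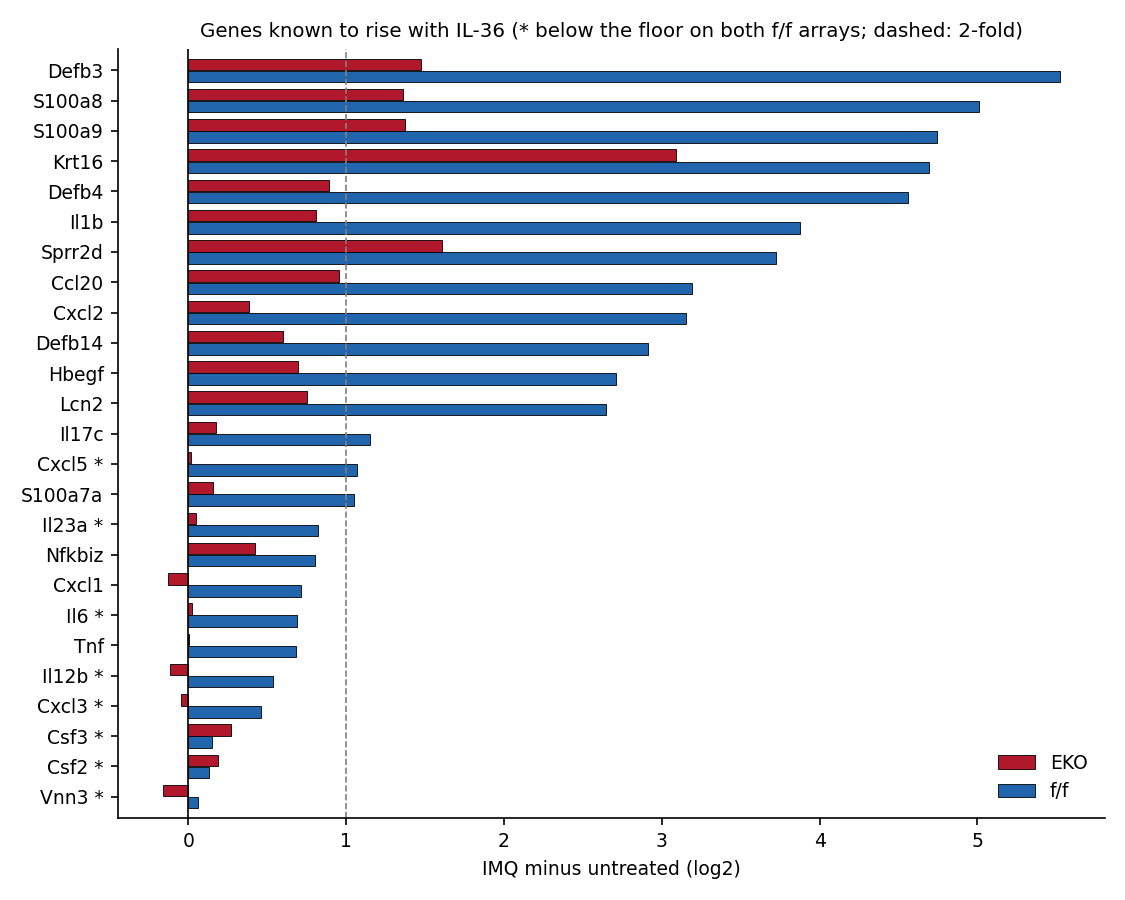
IMQ minus untreated log2 difference (x axis) for the 25 genes known to rise in cells given IL-36 (y axis), in EKO (red) and f/f (blue), with a dashed line at 2-fold and stars on genes below the floor on both f/f arrays. Blue bars are longer than red bars for all genes but Csf3, Csf2 and Vnn3 at the bottom, which lay below the floor; Krt16 has the longest red bar (3.09).

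The genes nearest to each member were found by the root mean square distance between log2 profiles over the 4 arrays, each centred on its own mean. The search covered 10646 genes that reached the floor on at least 1 array. Nearest to Il1f6 were Cxcr2 (distance 0.12), Bub1 (0.15), Defb14 (0.16), Slc5a1 (0.17) and Teddm3 (0.18). Cxcr2 encodes the receptor for neutrophil chemokines, Bub1 a mitotic checkpoint kinase and Defb14 a beta-defensin. Defb14 lay below the floor on all arrays but f/f IMQ, so most of its profile is imprecise. Nearest to Il1f8 were Blmh (0.03), Kif23 (0.03), Sgo1 (0.04), Car12 (0.04) and 2610528J11Rik (0.05), of which Blmh encodes bleomycin hydrolase, an enzyme of filaggrin breakdown, and Kif23 and Sgo1 encode proteins of cell division. Nearest to Il1f9 were Slc10a6 (0.02), Asns (0.02), Dusp7 (0.03), H4c3 (0.03) and Mybbp1a (0.03).

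Nearest to the antagonist Il1f5 were Dnph1 (0.02), Dtl (0.03), Ckmt1 (0.03), Arhgap11a (0.04) and Smpd1 (0.04), the last encoding the acid sphingomyelinase that makes ceramides. Nearest to Il1rl2 were Dhrs1, Polr2l, Tmpo, Alg9 and Hgh1, all at 0.01. The profile of Il1rl2 is shallow, and many genes with small differences lie near it. No member was among the 5 nearest of another: the closest pair, Il1f9 and Il1f5, lay at 0.12, Il1f5 ranking 240 by nearness to Il1f9, and Il1f6 and Il1rl2 lay furthest apart at 0.79. Distances over 4 arrays depend on the size of a response as well as its shape.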

How the data were processed

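Per the submitters' processing notes, the authors made the values with RMA, which corrects background, equalises the arrays' distributions and summarises probes. The sources used here give no version. The deposited numbers are log2 levels of probe sets, as their range and the shared medians show. RMA hides a shift common to most genes and compresses low signals. Of 35556 probe sets, 21789 carried 1 gene symbol in the platform annotation; the one with the highest mean stood for each gene. RefSeq (GRCm38.p6) served for names, gene order and promoter windows.

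Log2 differences were computed for 5 comparisons with Python 3.11.15, numpy 2.4.6 and pandas 2.3.3. A gene was counted at a difference of at least 1 (2-fold) with a level at or above the floor. The counting step was tested on simulated arrays with planted changes well past 2-fold in genes above the floor, all of which it recovered. That test does not cover differences near 2-fold, such as those of several members. Alternatives were median scaling, quantile and cyclic loess normalization (limma 3.58.1 in R 4.3.3), the mean over probe sets of a gene, no floor and a 1.5-fold threshold. No significance test was run, since each group holds 1 array. An additive model over both factors was left out because its residual would be the genotype-by-IMQ difference itself. Members and lists were chosen with earlier results of these data known. Named genes were the members, Traf6, called list members and up to 4 others per list, and the 5 nearest profiles of each member.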

Additional observations from a re-analysis of the deposited data

How the results depend on the processing

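All 25 differences of the members kept their direction under the 3 scalings and the mean of probe sets. They moved by at most 0.05 with median scaling, 0.11 with quantile normalization and 0.08 with cyclic loess, and not at all with the mean of probe sets, since each member has 1. Quantile normalization moved the f/f IMQ difference to 0.96 for Il1f9 and 0.79 for Il1f5, and 2 members in place of 3 passed 2-fold in f/f under it and under cyclic loess. At 1.5-fold in place of 2-fold, 2 members in place of 0 were higher with IMQ in EKO (2.66% of all genes tested), 2 in place of 0 were higher in EKO than in f/f untreated (0.647%), 1 in place of 0 was lower in EKO than in f/f with IMQ (2.61%), and 3 in place of 1 were lower for the difference of the IMQ differences (4.63%). Over the 5 pathway lists together, 1.5-fold gave 9 genes in place of 5 with IMQ in EKO, 2 in place of 0 without IMQ, and 24 in place of 15 for the difference of the IMQ differences. Other counts stayed within 1.5 times the reported ones under the alternatives run. Leaving out a replicate was not possible with 1 array per group, and that number limits the precision of every value. Signals below the floor approach background, so differences of genes such as Il17a, Elane and Il1f10 are imprecise.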

Other observations

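The profile nearest to Il1f6 was that of Cxcr2, which stands on the list of neutrophil markers. Its log2 level was 8.16 in EKO IMQ and 7.11 in EKO untreated, against 8.94 in f/f IMQ and 6.18 in f/f untreated skin, the last below the floor. With IMQ in EKO, Cxcr2 was at 1.05, against a median of 0.18 over the 13 neutrophil markers, of which 3 reached the floor. The neutrophil genes Csf3r, Trem1 and Clec4e were below the floor on all arrays but f/f IMQ, so no untreated difference is read for them. With IMQ, EKO read lower than f/f by -0.78 for Cxcr2, -1.10 for Csf3r, -2.70 for Trem1 and -1.92 for Clec4e. These genes were picked after their values were seen.

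Of the beta-defensins on the IL-36-responsive list, Defb14, Defb3 and Defb4 lay below the floor on both untreated arrays. In EKO IMQ skin Defb14 (6.46) and Defb4 (6.21) lay below it too, so their differences below are imprecise. With IMQ, EKO read lower than f/f for Defb14 (-1.43), Defb3 (-4.20) and Defb4 (-3.53).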
